A study of Mus musculus with 12 samples.

Results

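Homeostatic microglia genes are genes by which the resident macrophages of the brain are recognised in undisturbed tissue. In total, 10 such genes were taken by their symbols, namely P2ry12, P2ry13, Tmem119, Cx3cr1, Sall1, Siglech, Gpr34, Fcrls, Olfml3 and Selplg2, and every row of the deposited gene table with exactly one of these symbols was used. Of the 10, 9 had a row among the 54833 genes of the table, and Selplg2 was not analysed here. All 9 passed the filter on low counts, which left 21495 genes for testing. Rows were picked by symbol and by no measured value, but the members were chosen with earlier results of these data known.

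RNA-seq had been done on 12 samples of caudate putamen from wild-type male C57BL/6 mice, 3 each from young mice (8 to 10 weeks) after sham surgery or ICH and from aged mice (20 to 22 months) after sham surgery or ICH. ICH, an intracerebral hemorrhage, was induced by type IV collagenase, an enzyme that opens small vessels, and sham mice had the same surgery with sterile saline alone. Tissue around the hematoma, or the matching tissue of sham mice, was taken 24 h later from brains perfused with buffered saline. As 2 or 3 mice were combined in a sample, the spread between samples is that between pools, and 1 time point in 1 model was measured.

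Microglia survey the parenchyma through their processes and depend on signals from the tissue around them. P2ry12 and P2ry13 are receptors for ADP and Cx3cr1 is the receptor for fractalkine, a chemokine made by neurons, so these members couple microglia to injured or active cells nearby. Sall1 is a zinc finger transcription factor that keeps microglia distinct from other macrophages, and TGF-β and ligands of Csf1r keep the cells in this state. Such genes are widely used to tell microglia from macrophages that enter from the blood, although Cx3cr1 is also made by monocytes, P2ry12 by platelets and Siglech by plasmacytoid dendritic cells.

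All 9 members are protein-coding genes, and 4 of them lie on mouse chromosome 3 of the GRCm38 build. P2ry12 (ENSMUSG00000036353, chr3:59216272-59262871, minus strand) and P2ry13 (ENSMUSG00000036362, chr3:59207892-59210882, minus strand) are neighbours in a cluster that also holds P2ry14 and Gpr171, all 4 within the span of Med12l on the opposite strand. Fcrls (chr3:87250758-87263738) and Olfml3 (chr3:103722222-103738001) lie elsewhere on the minus strand of that chromosome. Siglech (ENSMUSG00000051504) is at chr7:55768178-55778925 on the plus strand. Of the rest, Tmem119 is at chr5:113793729-113800516, Sall1 at chr8:89027235-89044162, Cx3cr1 at chr9:119901616-120069879 and Gpr34 at chrX:13632089-13640858, inside the span of Cask on the opposite strand.

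The sources used here do not say whether counting used the strand of the reads, so reads of overlapping genes may not be told apart. P2ry12 shares 9 exonic bases with Med12l, which is 0.354% of the exonic bases of P2ry12, and Cx3cr1 shares 78 with the antisense gene Gm33858. The other members share no exonic base with a gene on either strand in the GENCODE vM21 annotation.

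The sequences upstream of 4 members are shown, since P2ry12, Siglech and Fcrls are the members called in the comparisons below and P2ry13 is the neighbour of P2ry12 that was not. Each run is the 250 bases before a RefSeq start on GRCm38.p6, read 5′ to 3′ on the strand of the gene. Capitals mark a PU box, searched as GAGGAA on both strands, or a TATA box, searched as TATAAA on both strands.
P2ry12, chr3:59262986-59263235, minus strand: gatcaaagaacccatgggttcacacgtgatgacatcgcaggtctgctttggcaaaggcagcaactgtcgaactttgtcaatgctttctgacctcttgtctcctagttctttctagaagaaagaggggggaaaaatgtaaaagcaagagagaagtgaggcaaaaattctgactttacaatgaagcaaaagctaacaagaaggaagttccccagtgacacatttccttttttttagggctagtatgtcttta
Siglech, chr7:55767934-55768183, plus strand: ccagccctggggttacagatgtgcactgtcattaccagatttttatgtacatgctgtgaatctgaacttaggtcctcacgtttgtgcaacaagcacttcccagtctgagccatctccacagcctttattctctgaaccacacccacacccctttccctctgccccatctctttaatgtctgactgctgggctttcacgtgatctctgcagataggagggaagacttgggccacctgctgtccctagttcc
P2ry13, chr3:59210883-59211132, minus strand: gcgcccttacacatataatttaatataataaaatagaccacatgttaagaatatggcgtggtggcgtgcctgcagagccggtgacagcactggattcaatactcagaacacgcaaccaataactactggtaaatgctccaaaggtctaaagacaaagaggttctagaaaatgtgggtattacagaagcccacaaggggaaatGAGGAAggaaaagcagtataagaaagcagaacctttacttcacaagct
Fcrls, chr3:87263525-87263774, minus strand: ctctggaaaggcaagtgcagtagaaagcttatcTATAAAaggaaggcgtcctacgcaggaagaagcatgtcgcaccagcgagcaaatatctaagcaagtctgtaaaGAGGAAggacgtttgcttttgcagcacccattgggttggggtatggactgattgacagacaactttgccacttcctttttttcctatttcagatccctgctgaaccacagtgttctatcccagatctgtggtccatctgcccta

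RefSeq promoter windows were found for 7 of the 9 members, and Tmem119 and Gpr34 had no entry. The PU box, a sequence read by the myeloid transcription factor PU.1 (Spi1), occurred in the windows of P2ry13 and Fcrls, with its first base 48 and 144 bases before the start, and in 23.3% of the 32851 windows of all genes. The TATA box occurred in the window of Fcrls alone, 217 bases before the start, and in 12.4% of all windows. AP-1 sites were searched as TGANTCA and the MEF2 core as TAAAAATA, both on either strand. They occurred in 0 of the 9 windows of these 7 members and in 6.75% and 2.45% of all windows. The TATA box and the MEF2 core can share letters, and a match describes the sequence only.

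Samples held 28410896 to 37785160 counts on genes, and the members were counted between 237 times (Siglech, aged ICH replicate 1) and 3426 times (Cx3cr1, aged ICH replicate 1). Of 9 striatal neuron markers none was at 0 in all samples, and their summed level ranged from 1774 to 3024 CPM in young sham, 513 to 1725 in young ICH, 1513 to 2640 in aged sham and 325 to 1912 in aged ICH samples. CPM are counts scaled to 1000000 counts of library size after TMM scaling. A list of 6 choroid plexus genes summed to 9.62 to 4054 CPM within the young ICH group and 39.5 to 1965 within the aged ICH group, so samples of 1 group differed in these markers.

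Per transcript length, in FPKM, Fcrls had the highest mean level of the members in all 4 groups and Siglech the lowest. In young sham samples, Fcrls was at 22.1 ± 0.465 FPKM (SD, n = 3), followed by Cx3cr1 at 15.8 ± 1.28, Tmem119 at 12.9 ± 1.61, P2ry12 at 10.1 ± 1.48 and Olfml3 at 7.07 ± 0.629, each with all 3 samples above those of the next. P2ry13, Sall1, Gpr34 and Siglech followed at means of 4.53 to 5.30 FPKM, with ranges that overlapped from one to the next. The order at the top was less clear in aged sham samples, where Fcrls (17.2 ± 3.91), Cx3cr1 (16.6 ± 2.16), P2ry12 (13.3 ± 2.17) and Tmem119 (12.7 ± 1.11) overlapped with their neighbours in the order. After ICH, Siglech stood below all other members, at 2.76 ± 0.584 FPKM in young and 2.41 ± 0.353 FPKM in aged mice, with no overlap with the next member, which was Sall1 in young and P2ry13 in aged mice. P2ry12, the fourth member in young sham and the third in aged sham samples, overlapped with Olfml3 in both ICH groups.

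**Figure D1:**
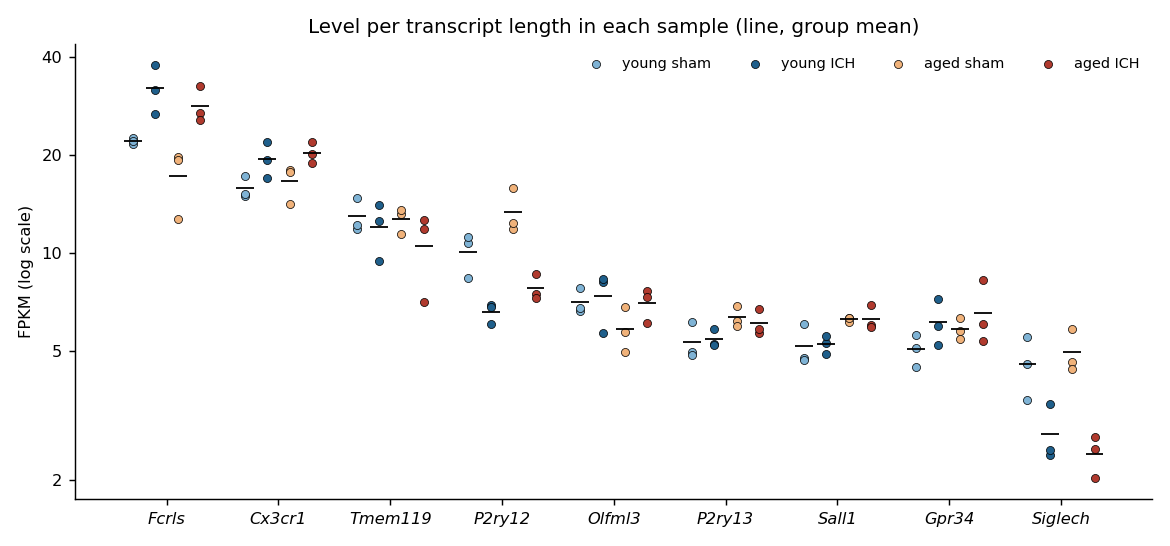
FPKM of the 9 members in each of the 12 samples on a log axis, with genes ordered by their mean in young sham samples, points for samples and short lines for group means (n = 3). By group mean Fcrls is highest and Siglech lowest, though not in every sample. In each age the ICH samples of P2ry12 and Siglech lie below the sham samples while those of Fcrls lie above.

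First, the effect of ICH was examined by comparing ICH and sham samples of the same age. At 24 h the members did not move as a group: P2ry12 and Siglech fell in both ages, Fcrls rose in aged mice, and the other 6 members passed the criterion in neither age. P2ry12 fell by 1.63-fold in young and 1.80-fold in aged mice, and Siglech by 1.75-fold and 2.16-fold. Differential expression (a DEG) required a fold change over 1.5 or under 0.67, a log2FC of at least 0.585 or at most -0.578, together with P under 0.05 before adjustment in edgeR's quasi-likelihood test. In young mice 0 of 9 members were upregulated and 2 downregulated, where over all genes tested 8.66% were upregulated and 3.49% downregulated. In aged mice 1 was upregulated and 2 downregulated, where 7.24% of all genes tested were upregulated and 2.82% downregulated. The median log2FC of the members was -0.06 in both ages, and that of all genes tested was 0.02 in young and 0.00 in aged mice. In these bulk samples, fewer cells of a type and less RNA per cell cannot be told apart.

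P2ry12, the ADP receptor that steers microglial processes toward injury, was at 28.4, 29.8 and 22.2 CPM in the 3 young sham samples and at 17.3, 17.3 and 14.8 CPM in the young ICH samples. In aged mice it was at 30.8, 41.0 and 31.4 CPM in sham and 18.4, 21.1 and 17.9 CPM in ICH samples. All 6 ICH samples were below all 6 sham samples, and the groups overlapped in neither age. The log2FC was -0.70 ± 0.14 (SE; adjusted P = 0.00592, edgeR) in young and -0.85 ± 0.14 (adjusted P = 0.00536) in aged mice. It remained a DEG in both ages in each fit that left out 1 of the 12 samples.

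Siglech, a sialic acid-binding lectin that signals through the adaptor Tyrobp, was at 19.5, 16.1 and 12.4 CPM in young sham and 11.4, 7.99 and 8.07 CPM in young ICH samples. In aged mice it was at 16.0, 20.0 and 14.9 CPM in sham and 6.61, 8.84 and 8.14 CPM in ICH samples. The lowest sham sample, young sham replicate 3, was close to the highest ICH sample, young ICH replicate 1, and the groups overlapped in neither age. The log2FC was -0.80 ± 0.20 (adjusted P = 0.0159, edgeR) in young and -1.11 ± 0.20 (adjusted P = 0.00727) in aged mice. Siglech too stayed a DEG without any 1 of the samples, but its adjusted P in young mice ranged up to 0.0595 over the alternatives tried.

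Fcrls, an Fc receptor-like scavenger receptor of mouse microglia, was at 52.9, 55.4 and 53.6 CPM in young sham and 72.9, 61.9 and 85.6 CPM in young ICH samples. In aged mice it was at 47.0, 30.2 and 45.2 CPM in sham and 73.4, 60.3 and 58.1 CPM in ICH samples. In each age all ICH samples were above all sham samples, and the young ICH samples were spread more widely than the young sham samples. It rose in aged mice by 1.57-fold, with a log2FC of 0.65 ± 0.16 (adjusted P = 0.0233, edgeR). The call in aged mice rests on 2 samples: the log2FC was 0.47 without aged sham replicate 2 (adjusted P = 0.0602) and 0.54 without aged ICH replicate 1 (adjusted P = 0.106), both short of the fold required. In young mice the log2FC of 0.45 ± 0.16 (unadjusted P = 0.0163, adjusted P = 0.0711) stayed below the fold required.

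**Figure D2:**
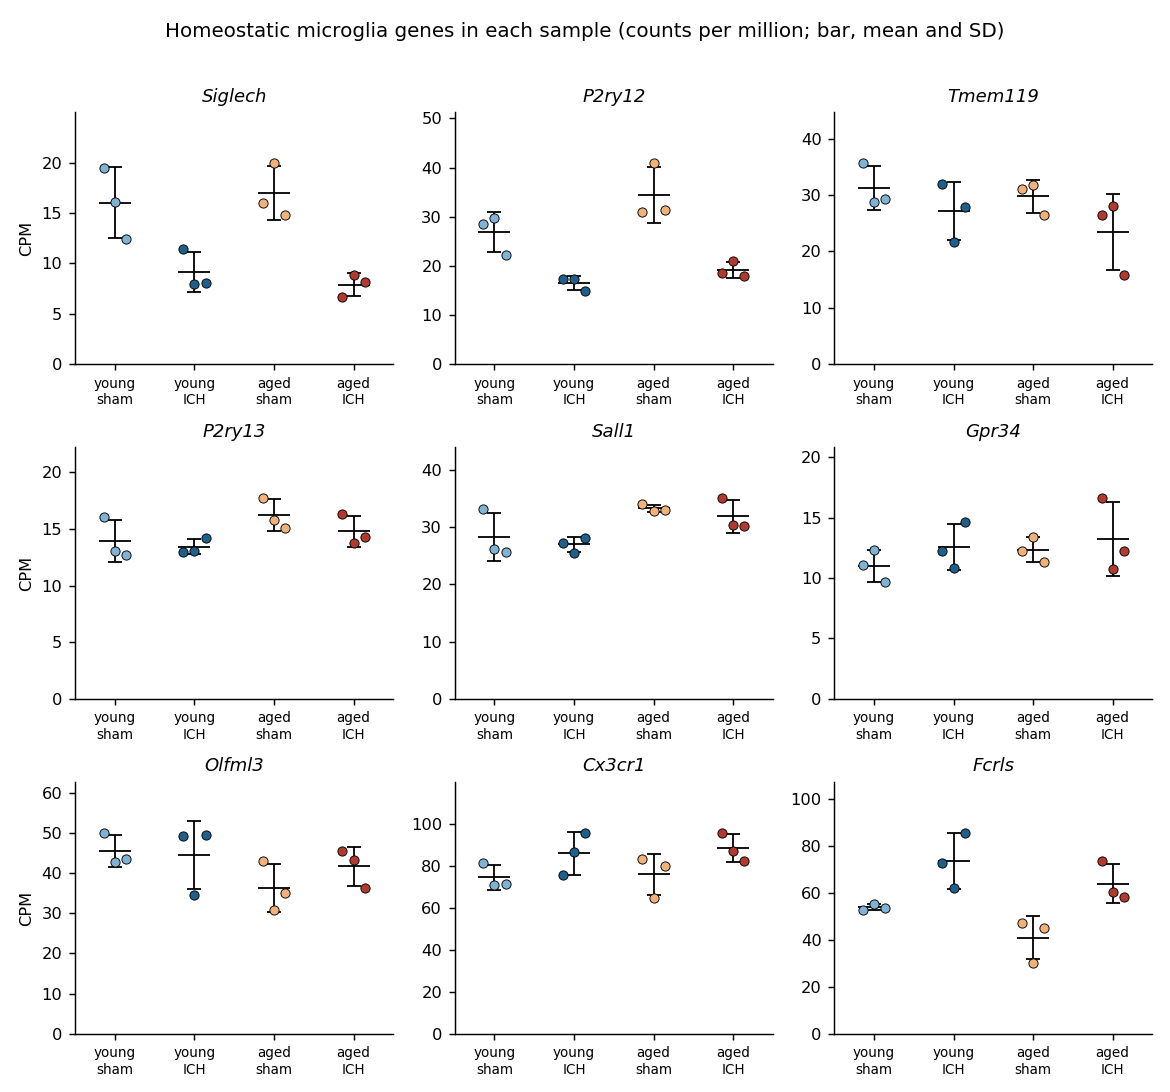
CPM of each of the 9 members in the 12 samples, 1 panel per gene with its own axis from 0, points for samples and bars for the group mean and SD (n = 3). Siglech and P2ry12 are lower and Fcrls higher in the ICH samples of both ages without overlap, while sham and ICH samples overlap in the other 6 panels. The share of all genes tested whose sham and ICH samples do not overlap was not computed.

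Of the members that passed the criterion in neither age, Tmem119, a membrane protein used as a microglia marker, was the lowest in log2FC. It was at 35.8, 28.8 and 29.3 CPM in young sham, 31.9, 21.6 and 28.0 in young ICH, 31.1, 31.8 and 26.5 in aged sham and 26.5, 28.1 and 15.8 in aged ICH samples. Its log2FC was -0.20 in young mice, with a 95% confidence interval (CI) of -0.64 to 0.23, and -0.35 (CI -0.78 to 0.09) in aged mice, where 1 sample, aged ICH replicate 3, was far below the other 2. These intervals hold both no difference and a fall past the fold required.

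Cx3cr1, the fractalkine receptor, was at 81.3, 70.7 and 71.1 CPM in young sham and 75.4, 86.3 and 95.7 CPM in young ICH samples, and at 83.0, 64.8 and 79.9 CPM in aged sham and 95.5, 87.1 and 82.2 CPM in aged ICH samples. Its log2FC was 0.21 (CI -0.03 to 0.45) in young and 0.22 (CI -0.02 to 0.46) in aged mice, and the groups overlapped. For P2ry13, the other ADP receptor, levels were 13.98 ± 1.85 CPM in young sham, 13.4 ± 0.678 in young ICH, 16.2 ± 1.40 in aged sham and 14.8 ± 1.37 in aged ICH samples, with overlapping groups. Its log2FC of -0.06 (CI -0.30 to 0.18) and -0.13 (CI -0.37 to 0.11) had intervals that exclude a fall of the size fitted for P2ry12. The transcription factor gene Sall1 gave -0.07 (CI -0.28 to 0.15) and -0.06 (CI -0.28 to 0.16), with sham samples at 25.6 to 34.0 CPM and ICH samples at 25.5 to 35.2 CPM over both ages.

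Gpr34, a receptor for lysophosphatidylserine, ranged from 9.64 to 13.4 CPM in sham and 10.7 to 16.6 CPM in ICH samples, with a log2FC of 0.19 (CI -0.18 to 0.55) in young and 0.10 (CI -0.26 to 0.46) in aged mice. Olfml3, a secreted glycoprotein, ranged from 30.9 to 50.1 CPM in sham and 34.6 to 49.5 CPM in ICH samples, with a log2FC of -0.03 (CI -0.37 to 0.30) and 0.20 (CI -0.13 to 0.54). In both genes the groups overlapped in either age.

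**Figure D3:**
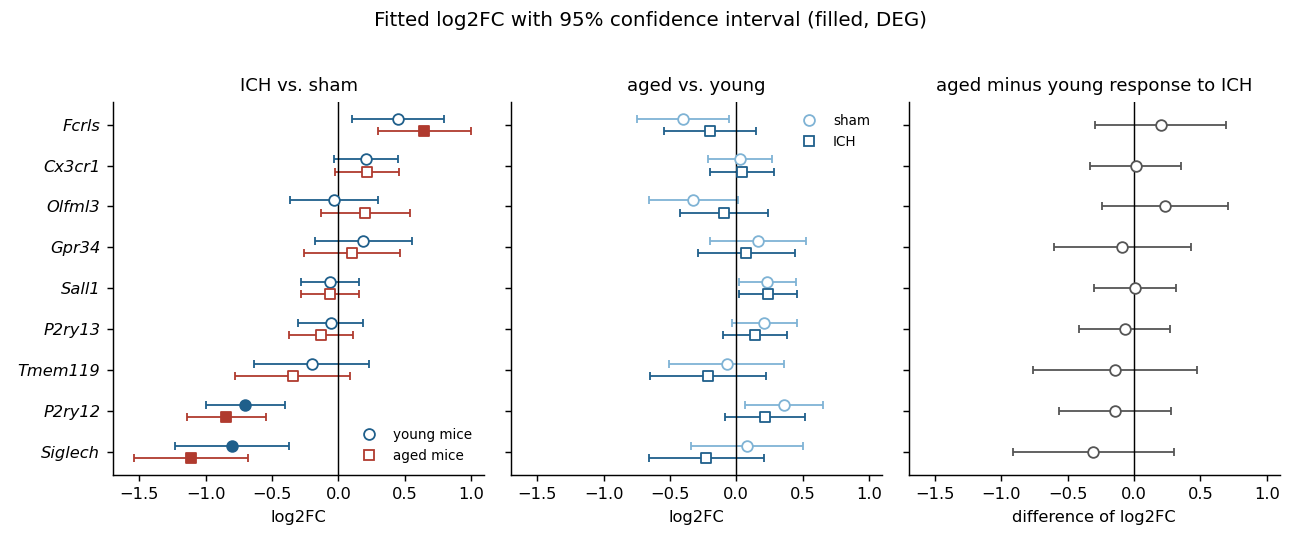
Fitted log2FC with 95% CI of each member for ICH vs. sham in young and aged mice (left), for aged vs. young mice after sham surgery or ICH (middle), and for the difference between the responses to ICH (right); filled symbols are DEGs. P2ry12 and Siglech are DEGs below 0 in both ages and Fcrls above 0 in aged mice, and no member is a DEG in the middle or right panel.

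The effect of age alone was then examined in sham mice. None of the 9 members was a DEG between aged sham and young sham samples by edgeR, DESeq2 or limma. Of all genes tested, 2.82% were upregulated and 0.898% downregulated DEGs by edgeR. The share of all genes tested with an unadjusted P under 0.05, whatever the fold, was not computed. Among the members, 3 had such a P by edgeR. These were P2ry12, with a log2FC of 0.36 ± 0.14 (adjusted P = 0.319, edgeR) and all 3 aged above all 3 young samples, Fcrls, with -0.40 ± 0.16 (adjusted P = 0.34) and all 3 aged below, and Sall1, with 0.24 ± 0.10 (adjusted P = 0.371) and overlapping groups. The median log2FC of the members was 0.08 and that of all genes tested 0.01.

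Between aged ICH and young ICH samples, 0 members were DEGs by the same 3 tools. Of all genes tested, 2.21% were upregulated and 1.3% downregulated DEGs by edgeR. The share with an unadjusted P under 0.05, whatever the fold, was not computed here either, and 1 member had such a P. This was Sall1, at 35.2, 30.3 and 30.2 CPM in aged ICH and 27.3, 25.5 and 28.2 CPM in young ICH samples, with a log2FC of 0.24 ± 0.10 (adjusted P = 0.486, edgeR). P2ry12 did not overlap between these groups either, with 17.9 to 21.1 CPM in aged and 14.8 to 17.3 CPM in young ICH samples and a log2FC of 0.22 (CI -0.08 to 0.52).

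Whether the response to ICH differed with age was tested as an interaction. Again 0 members passed the criterion by edgeR, DESeq2 or limma, 0 had an unadjusted P under 0.05, and all had an adjusted P of 0.99991, where 0.484% of all genes tested passed upward and 1.08% downward. The difference of the log2FC, aged minus young, ranged from -0.31 (Siglech, CI -0.91 to 0.30) to 0.23 (Olfml3, CI -0.24 to 0.71), and was -0.15 for P2ry12 (CI -0.57 to 0.28) and 0.20 for Fcrls (CI -0.29 to 0.69). The intervals of Siglech, Tmem119, Gpr34, Olfml3 and Fcrls reach past the fold required in at least 1 direction, so a difference of that size was not excluded for these 5 members.

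Within samples, the summed level of the 9 members overlapped between groups, while its percentage of genes shared with other myeloid cells separated sham from ICH samples. The sum ranged from 280.0 to 328.2 CPM in young sham, 279.2 to 338.8 in young ICH, 280.8 to 315.0 in aged sham and 275.1 to 334.1 in aged ICH samples. The sum of 15 genes shared by microglia and other myeloid cells, among them Csf1r, Cd68 and Tyrobp, was 595 ± 49.7 CPM in young sham, 793 ± 74.6 in young ICH, 661 ± 31.4 in aged sham and 904 ± 39.2 in aged ICH samples. The members therefore summed to 50.6% ± 2.29 of these genes in young sham, 39.0% ± 1.20 in young ICH, 44.8% ± 2.31 in aged sham and 33.6% ± 1.94 in aged ICH samples, with no overlap between sham and ICH in either age. The myeloid sum was itself apart between sham and ICH samples in each age, so the lower percentage follows its rise and shows no fall of the members.

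The ratio of the neighbouring ADP receptors was computed from their counts in the same sample, so that library scaling drops out. P2ry12 had 1.93 ± 0.301 counts per count of P2ry13 in young sham, 1.23 ± 0.164 in young ICH, 2.14 ± 0.430 in aged sham and 1.30 ± 0.206 in aged ICH samples. Fcrls had 2.05 ± 0.320 counts per count of P2ry12 in young sham, 4.52 ± 1.13 in young ICH, 1.23 ± 0.431 in aged sham and 3.36 ± 0.568 in aged ICH samples. Both ratios were apart between sham and ICH samples in each age. For Fcrls to P2ry12 this had to be so, since each gene was apart by itself and in opposite directions, and it adds nothing to their values. For P2ry12 to P2ry13, P2ry12 was apart by itself and P2ry13 overlapped, so the ratio largely restates the values of P2ry12. These sums and ratios were described without a test.

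**Figure D4:**
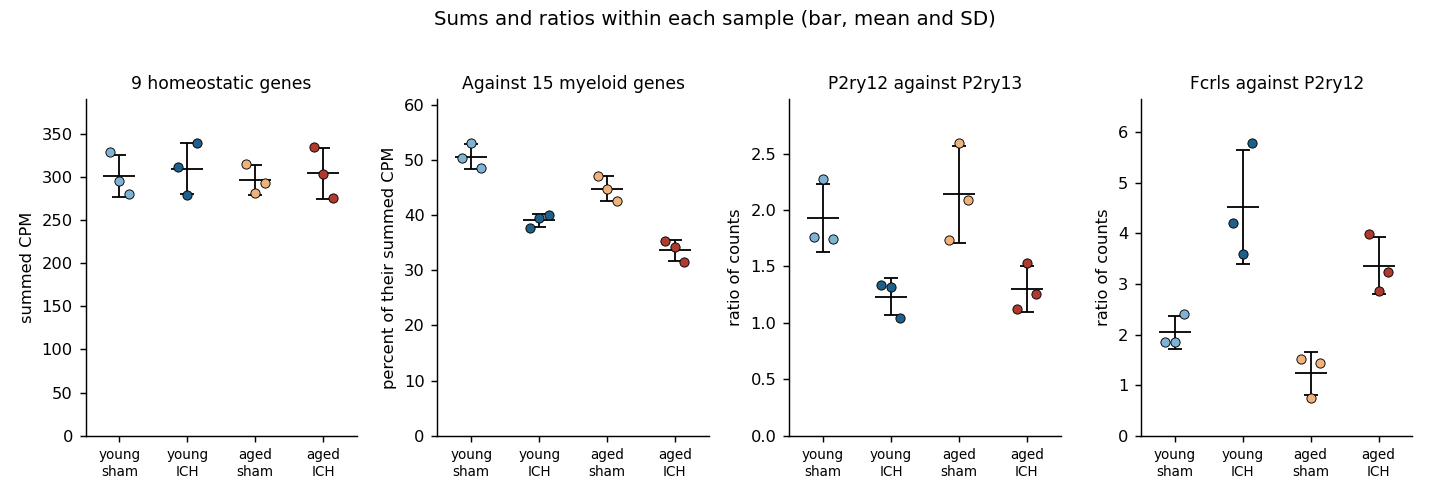
Values within each of the 12 samples, from left to right the summed CPM of the 9 members, the same sum as a percentage of the summed CPM of 15 shared myeloid genes, the count ratio of P2ry12 to P2ry13 and that of Fcrls to P2ry12, with points for samples and bars for mean and SD (n = 3). The summed level overlaps between groups, and the other 3 measures separate sham from ICH samples in both ages. For Fcrls to P2ry12 this follows from the separation of each gene in opposite directions. In the percentage the myeloid sum, and in P2ry12 to P2ry13 the gene P2ry12, was apart by itself while the other part overlapped.

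The members also differed in how alike their profiles were over the 12 samples. As the root mean square difference between centred log2 CPM profiles, P2ry13 and Sall1 were the closest pair at 0.0629, although they lie on different chromosomes. P2ry12 was closest to Siglech at 0.249 and lay farther from its neighbour P2ry13 at 0.392. Siglech and Fcrls were the farthest pair at 0.846. The mean profile of the members was nearly flat, with an SD of 0.123 over samples, and the 10 genes closest to it among 16571 candidates were Bmpr1a, Acly, Stat5b, Gmeb1, Wwp1, Atxn1l, Zfx, Rpe, Vangl2 and Stag2, at differences from 0.0563 for Bmpr1a upward. The same 10 genes were found on the FPKM scale, which adds little. Centring each gene removes its length, and a scaling common to a sample drops out of the difference. Chosen after their values were seen, the genes closest to Fcrls were Mcm5 at 0.109 and Lmnb1 at 0.130, which serve DNA replication and the nuclear lamina, and the third closest to Tmem119 was its chromosome neighbour Selplg at 0.151.

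In the gene cluster of P2ry12 and P2ry13, the other genes differed in direction. Gpr171 rose in both ages, with a log2FC of 0.89 ± 0.28 (adjusted P = 0.0469, edgeR) in young and 1.08 ± 0.28 (adjusted P = 0.0283) in aged mice, at group means of 1.19 to 2.59 CPM. P2ry14, a receptor for UDP-sugars, gave 0.37 and 0.34 and was no DEG. Med12l, on the opposite strand, was lower in ICH samples, with a log2FC of -0.50 (CI -0.76 to -0.24, adjusted P = 0.0137, edgeR) in young mice, an interval that holds the value fitted for P2ry12, and -0.30 (CI -0.55 to -0.04, adjusted P = 0.122) in aged mice. It stayed short of the fold required in both ages.

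Ligands and partners of the members were examined next, in a list of 14 purinergic and ligand genes of which 2 were upregulated and 1 downregulated in each age. Cx3cl1, which encodes fractalkine, fell by a log2FC of -0.73 ± 0.11 (adjusted P = 0.00195, edgeR) in young and -0.61 ± 0.11 (adjusted P = 0.00678) in aged mice, from mean levels of 728 and 508 CPM in sham to 439 and 332 CPM in ICH samples. Neuron markers were lower in the same samples: 8 of 8 pan-neuron genes and 9 of 9 striatal neuron genes had a log2FC below 0 in both ages, and the pan-neuron genes summed to 7269 to 8496 CPM in young sham, 5250 to 6779 in young ICH, 7067 to 7746 in aged sham and 5791 to 6392 in aged ICH samples. The DEGs among them, all downregulated, were 1 pan-neuron gene in young mice and 1 striatal neuron gene in each age. Their part in the level of Cx3cl1 was not tested. P2ry6, a UDP receptor linked to phagocytosis, rose by 1.01 and 1.05, and P2ry2, a receptor for ATP and UTP, by 1.34 and 1.58, on the log2 scale. Entpd1, which breaks down ATP and ADP, and Nt5e, which makes adenosine, were no DEGs, with a log2FC of 0.20 and -0.07 and of -0.09 and -0.27. The median of this list was 0.10 in young and -0.03 in aged mice.

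Among 13 genes of the signals that keep microglia in place, 3 were upregulated and 0 downregulated in each age, with medians of 0.09 and 0.11. Csf1, a ligand of Csf1r, rose by 0.90 ± 0.15 (adjusted P = 0.00337, edgeR) in young and 0.70 ± 0.15 (adjusted P = 0.0133) in aged mice. Nrros, which helps microglia to activate TGF-β1, rose by 0.74 and 0.62. Tgfb1 gave 0.57 in young mice, where it was no DEG, and rose by 0.64 in aged mice, and Tgfbr2 rose by 0.59 in young mice and gave 0.39 in aged mice. Il34, the other ligand of Csf1r, gave -0.40 and -0.19, Csf1r 0.09 and 0.18, Tgfbr1 -0.08 and -0.17 and Smad4 -0.36 and -0.24, and none of these 4 was a DEG in either age.

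Among 11 transcription factor genes of microglia, 3 were upregulated in young and 4 in aged mice and 0 were downregulated, with medians of 0.36 and 0.41. Spi1, which encodes PU.1, rose by 1.06 ± 0.24 (adjusted P = 0.0112, edgeR) and 1.01 ± 0.24 (adjusted P = 0.0195), Runx1 by 1.04 and 1.24, and Cebpa by 1.12 and 0.98. Irf8 gave 0.52 in young mice, no DEG, and rose by 0.63 in aged mice. The log2FC was above 0 for 7 of the 11 genes in young and 8 in aged mice. Below 0, and named after their values were seen, were Mef2c at -0.48 and -0.15 and Mef2a at -0.22 in each age, no DEGs.

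A further list of 22 genes typical of microglia had 7 upregulated and 1 downregulated gene in young and 4 upregulated and 2 downregulated genes in aged mice, with medians of 0.18 and 0.15. Ecscr rose by 0.78 and 0.91 on the log2 scale, while Slco2b1 gave 0.45 and 0.29 and was no DEG. Of 8 endothelial genes, 4 were upregulated and 0 downregulated in young mice, and 2 upregulated and 1 downregulated in aged mice. Among them Cdh5 rose by 0.77 and 0.72, and the part of endothelial cells in the value of Ecscr was not tested. The downregulated genes, named after their values were seen, were Slc2a5, a fructose transporter of microglia, at -0.60 ± 0.18 in young and -0.63 ± 0.17 in aged mice, and Lag3, an immune checkpoint receptor, at -0.67 in aged mice. Slc2a5 was also the fifth closest gene to P2ry12 in profile, at 0.194. Of 17 genes of disease-associated microglia, 9 were upregulated in young and 8 in aged mice and 0 were downregulated, with medians of 0.83 and 0.58. Spp1, which encodes osteopontin, rose by 2.30 and 1.89, Ccl6 by 2.49 and 2.67 and Cd63 by 1.26 and 1.29. Of the 15 shared myeloid genes, 6 were upregulated and 0 downregulated in each age, with medians of 0.53 and 0.54.

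**Figure D5:**
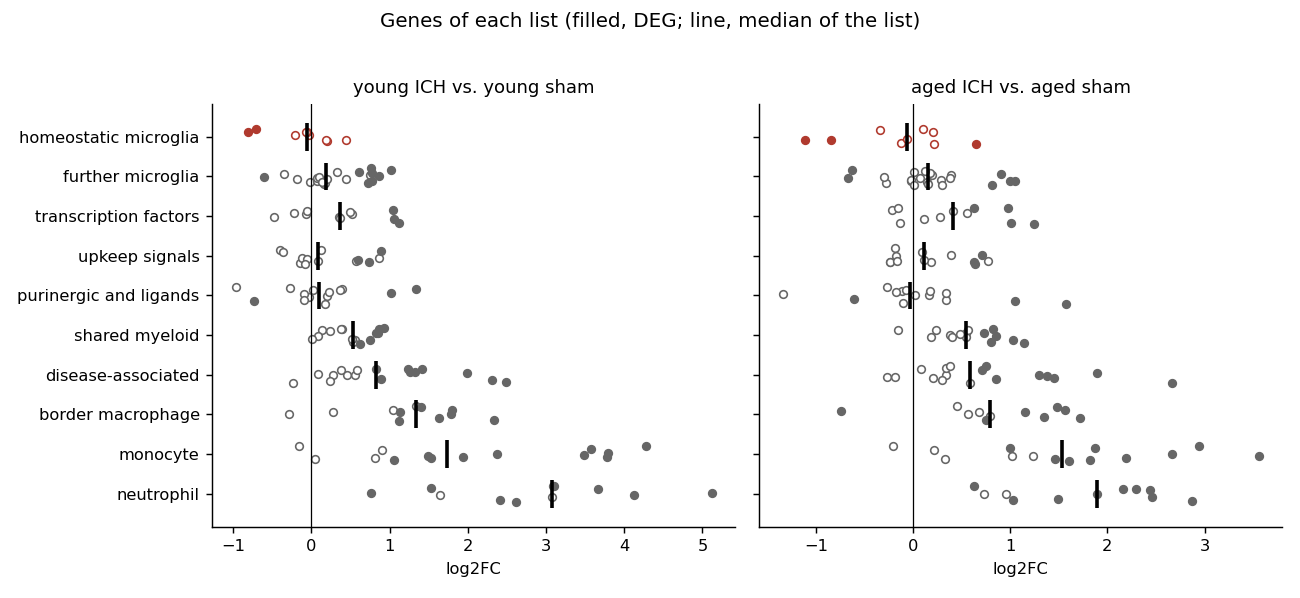
log2FC of the genes tested in each of 10 lists for ICH vs. sham in young (left) and aged mice (right), with filled points for DEGs, open points for other genes and a vertical line for the median of the list; the horizontal axes differ. The 9 homeostatic genes, in red, straddle 0 with medians of -0.06 in both ages, and the monocyte and neutrophil lists reach medians of 1.53 to 3.08. The 3.08, of the neutrophil list in young mice, is the value of Ltf, which was no DEG there. Its means were near the floor, at 0.00921 CPM in young sham and 0.115 CPM in young ICH samples.

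Markers of other myeloid cells moved in the same comparisons. The part of such cells in the values of the members, and of the lists of transcription factor, further microglia and disease-associated genes, was not tested. Of 14 monocyte genes tested, 10 were upregulated in young and 9 in aged mice and 0 were downregulated. The summed level of the list ranged from 156 to 167 CPM in young sham, 347 to 430 in young ICH, 127 to 233 in aged sham and 394 to 507 in aged ICH samples. Fn1 alone had means of 104, 218, 109 and 217 CPM in the same order of groups, a large part of this sum. Of 11 genes of border macrophages, 7 were upregulated in young and 6 in aged mice, and 1 was downregulated in aged mice, with sums of 34.8 to 54.4, 98.1 to 122, 46.3 to 56.3 and 97.8 to 114 CPM in the same order of groups. Of 11 neutrophil genes, 9 were upregulated in each age, with sums of 31.3 to 40.5, 148 to 335, 25.2 to 69.3 and 183 to 232 CPM. Lcn2, named after its values were seen, alone had means of 22.3, 191, 21.4 and 158 CPM, a large part of this sum. Sums that rest so much on single genes give no number of cells. In each of these 3 lists 0 genes were at 0 in all samples. P2ry12 and Siglech fell while these sums were higher in every ICH sample than in any sham sample of the same age.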

How the data were processed

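The members and all gene lists were chosen with earlier results of these data known. The authors used Hisat2 to align paired reads to GRCm38.p6 and FeatureCounts to count them on genes, and deposited 1 table with the raw count and the FPKM (fragments scaled by transcript length and mapped depth) of 54833 genes in 12 samples. Groups came from the sample labels, and 0 value columns were left unassigned. Strand setting, treatment of reads with several alignments and gene filters are not given in the sources used here.

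Counts were fitted with edgeR 4.0.16 in R 4.3.3, by the quasi-likelihood test with TMM scaling, filterByExpr with a minimum count of 10 and all 12 samples in 4 groups. P-values were adjusted by Benjamini-Hochberg over the 21495 genes tested. SE were derived from log2FC and the F statistic. The fit was tested on simulated counts with known fold changes. Log2 CPM used a prior count of 2. Levels between genes were compared on the deposited FPKM only. Depth covers counting error only, and the spread between pools sets the SE. Alternatives were RLE factors, library totals, DESeq2 1.42.0, no filter, a minimum count of 30, only the groups compared, a replicate block, adjusted P in place of P, limma 3.58.1 on log2(FPKM + 0.1) and leaving out each sample. All members were named. From each other list at most 4 genes with the smallest P in either ICH comparison were eligible, beside 9 ligands, receptors or enzymes that act with a member. Gene positions came from GENCODE vM21 and promoters from RefSeq. A few genes, and the values that rest on them, are not reported here.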

Additional observations from a re-analysis of the deposited data

How the results depend on the processing

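The numbers of members called in each comparison (2, 3, 0, 0 and 0, in the order of the report) were within 1.5 times under all 21 alternatives (20 for the interaction), with 2 in place of 3 where Fcrls was lost. Of 936 values of log2FC over 45 results, 934 kept their side of the criterion, 2 lost it (Fcrls in aged mice, given in the report), 0 gained it and 0 called values changed sign, while values that were not called changed sign 43 times in 16 results. Not all of these are separate checks. With adjusted P in place of P the log2FC is that of the main fit. A sample left out of a group not compared acts only through filter, scaling and spread. P2ry12 ranged from -0.82 to -0.60 in young and -0.92 to -0.70 in aged mice, and Siglech from -0.997 to -0.64 and -1.20 to -0.98. Scaling by library totals alone raised every log2FC for ICH by 0.09 in young and 0.07 in aged mice, and the share of upregulated among all DEGs went from 71.2% to 83.2% in young and from 72.0% to 82.1% in aged mice.

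Replicate numbers did not pair the samples, since the correlation of same-numbered deviations ranged from -0.454 to 0.235 between groups. With a replicate block, 2, 3, 0, 0 and 0 members were called. Counts of all DEGs for the age comparisons rested on the threshold: with adjusted P in place of P, 606 up and 193 down between sham groups became 19 and 2, 476 and 280 between ICH groups became 8 and 3, and 104 and 232 for the interaction became 0 and 0, while aged ICH fell from 1557 and 607 to 893 and 284 and young ICH from 751 to 453 down. By limma on FPKM the downregulated DEGs were 434, 382 and 124 in the first 3 comparisons, and library totals gave 485 in young ICH. Without a filter the counts were 920 and 349, 796 and 484, and 338 and 449 in the last 3 comparisons, and with a minimum count of 30 they were 396 and 119, 299 and 167, and 48 and 147. Leaving out 1 sample moved counts by over 1.5 times without aged ICH replicate 2 (1098 down for aged ICH, 451 down between ICH groups, 353 down for the interaction), young sham replicate 1 (292 down between sham groups, 177 up and 403 down for the interaction), young ICH replicate 3 (740 up between ICH groups, 260 up for the interaction), young ICH replicate 2 (424 down between ICH groups, 248 up and 361 down for the interaction) and aged sham replicate 3 (171 up for the interaction).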
